A study of Mus musculus with 16 samples.

Results

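Mesothelial cells form the single-layered sheet that lines the pleura, the outer surface of the lung. They secrete hyaluronan and a lubricating surface coat, lie on a basement membrane, and can lose their epithelial character and take on features of mesenchymal cells. They are known for Wt1, a transcription factor of the coelomic lining, for mesothelin (Msln), a cell surface glycoprotein, and for uroplakin 3b (Upk3b), a membrane protein of surface epithelia. The cells described here are those that the authors' cell annotation calls mesothelial. They numbered 629 of 80449 lung cells (0.782%), the 18th of 22 annotated types by size.

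The data are single-cell RNA counts from whole mouse lungs that were dissociated and sorted for live cells. All groups were mouse lung. The labels used here give neither strain, age nor sex, and no dose or time of treatment. The 6 groups were vehicle, 6-OHDA and BIBO3304 without seeded cells (3 samples each) and the same 3 treatments with seeded pancreatic ductal adenocarcinoma (PDAC) cells (2 samples each, written with -PDAC after the treatment, as in vehicle-PDAC). 6-OHDA is a neurotoxin that is taken up by sympathetic nerve terminals and destroys them. BIBO3304 blocks NPY1R, a receptor for neuropeptide Y, which those nerves release. The title of the series places the study in sympathetic control of lung seeding through this receptor. No source used here says whether numbered samples are separate mice, so a p-value here reflects only how far these samples spread.

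The 3 vehicle samples held 62, 78 and 45 mesothelial cells, the 6-OHDA samples 35, 59 and 21, and the BIBO3304 samples 33, 39 and 22. With PDAC cells there were 53 and 82 under vehicle, 26 and 17 under 6-OHDA and 32 and 25 under BIBO3304. Each sample's mesothelial cells gave 47140 to 270347 transcripts in all. The median per cell was 1642.5 to 2199 transcripts in vehicle samples, 1859 to 2880 under 6-OHDA and 2645 to 5272 under BIBO3304. 6-OHDA-PDAC 2, with 17 cells, fell under the minimum of 20 cells and was left out of every gene fit, so that 6-OHDA-PDAC rests on 1 sample there, which the fit assumes to vary like the other groups. Vehicle-PDAC 2 went against its label: it held 0 annotated cancer cells among 9157 cells, which allows a share of up to 0.0328%, while the other 5 seeded samples held 33 to 75 each. It also had a low median percent of mitochondrial transcripts (1.42), and the Cdk8 gene took 34.9% of its transcripts, the most of any sample. 6-OHDA-PDAC 1 had the lowest mitochondrial median (1.21), against 3.40 in 6-OHDA-PDAC 2. The unseeded vehicle samples held 2, 1 and 1 annotated cancer cells and the other unseeded samples 0. The main results with PDAC cells are also given without vehicle-PDAC 2. Vehicle-PDAC then has 1 sample, and the gene comparison with 6-OHDA-PDAC is 1 sample against 1. Barcodes of the first 3 rounds were shared with a cell of another sublibrary by 142 of the 629 cells, and 2 shared one with another mesothelial cell.

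The cells carried the markers of their label. Levels are given here as CPM, counts scaled to a common total of the sample's mesothelial transcripts, as mean ± SD over the 14 samples with at least 20 cells. Upk3b stood at 548 ± 98.1 CPM and at 1.79 CPM in the next highest type, the cancer cells, a ratio of 307. Wt1 stood at 895 ± 215 CPM against 28.6 CPM in adventitial fibroblasts. Msln stood at 465 ± 129 CPM against 64.7 CPM in the cancer cells, the smallest of these 3 gaps. A Upk3b transcript was found in 62.2% of the cells, a Wt1 transcript in 66.1% and a Msln transcript in 56.0%, against 0.182%, 0.212% and 0.207% of alveolar macrophages, whose median depth was 2932 transcripts against 2438. All 10 genes of the mesothelial marker list were higher in these cells than in any other type.

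**Figure D1:**
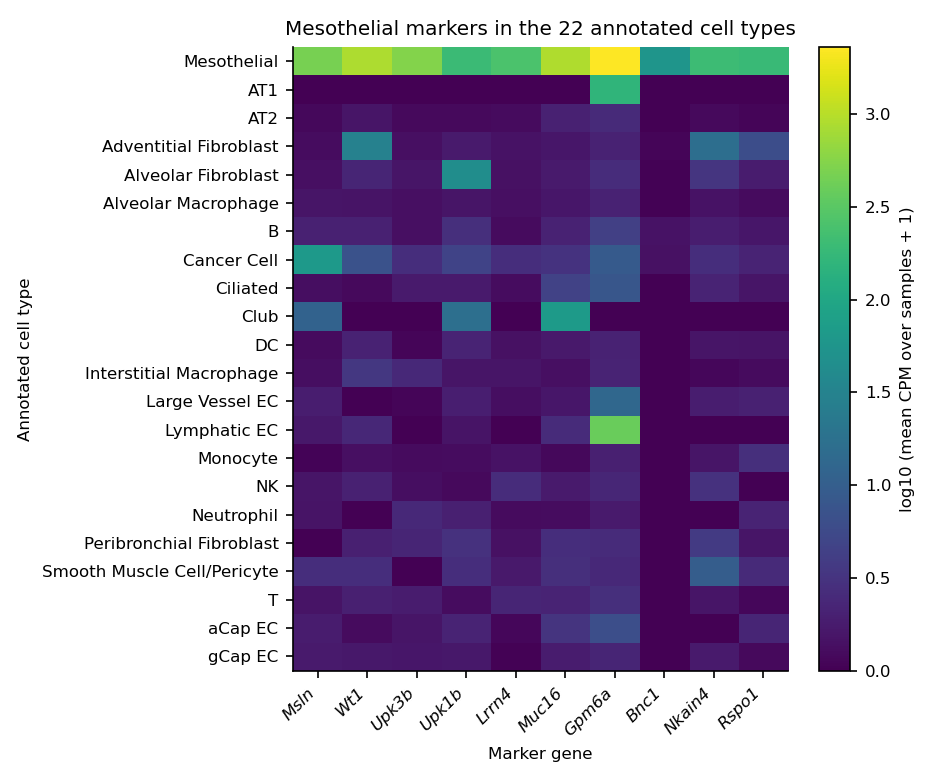
Mean level of the 10 mesothelial marker genes in each of the 22 annotated cell types, as log10 of CPM + 1 on a colour scale. Rows are types, columns are genes, and means are over samples with at least 20 cells of the type. The top row, mesothelial cells, is the brightest in every column, and the brightest square outside it is Gpm6a in lymphatic endothelial cells.

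Further genes set the cells apart, in a description with no test, since an annotation made from expression can rest on any of these genes. Of the 15 genes with the largest ratio to the next type at 100 CPM or more, Lrrn4, a leucine-rich repeat membrane protein, followed Upk3b with a ratio of 146 (256 ± 85.2 CPM). Rspo1, a secreted amplifier of Wnt signalling, stood at 187 ± 59.5 CPM against 5.19 CPM in adventitial fibroblasts. Aldh1a2, which makes retinoic acid, stood at 398 CPM against 27.4 CPM there, and Cldn15, a tight junction claudin, at 137 CPM against 6.54 CPM in alveolar type 1 cells. Fras1, a matrix protein of basement membranes, had a ratio of 27.3 and Muc16, a large surface mucin, one of 13.9.

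Several neuronal or ion channel genes were in the same group of 15. The neurexin ligand Nxph1 stood at 579 ± 500 CPM with a ratio of 95.6, the synaptic adhesion gene Il1rapl1 at 549 CPM with 43.8, and the potassium channel gene Kcnd2 at 523 CPM with 41.1. Nxph1 was uneven across samples, from 116 to 2103 CPM. The remaining members were Wt1, Nkain4, Gm54515, ENSMUSG00000121137 and Fbxo33, with ratios from 77.5 down to 7.78.

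Keratins and surface genes that mesothelial cells share with epithelia were also present. Krt7 stood at 191 CPM against 754 CPM in alveolar type 1 cells, and Krt18 at 72.2 CPM against 392 CPM in cancer cells. Ezr, which ties the membrane to the actin of microvilli, was highest here, at 1207 CPM beside 1113 CPM in ciliated cells. No transcript of Calb2, which encodes the mesothelial marker calretinin, was counted in any of the 629 cells.

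The number of markers caught differed between cells and was generally larger in cells with more transcripts. Cells with none of the 10 markers numbered 19 and had a median of 745 transcripts, while the 14 cells with all 10 had a median of 8488. At least 3 markers were seen in 515 cells (81.9%), and at least 1 of Msln, Wt1 and Upk3b in 540. A transcript of the cycling genes Mki67 or Top2a was found in 34 cells, between 0 and 7 per sample.

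Transcripts of marker genes of other cell types were also present, with list sums from 10.2 CPM (cancer cell) to 1155 CPM (fibroblast). In 190 mesothelial cells 2 or more immune marker transcripts were counted. The 10 immune markers summed to 416 CPM, against 334 and 436 CPM in adventitial and alveolar fibroblasts, and the 10 alveolar macrophage markers to 489 CPM, against 316 and 395 CPM there and 7069 CPM in the macrophages themselves. The 10 fibroblast markers summed to 1155 CPM, against 4755 and 7546 CPM in these fibroblasts. Of 9 cancer cell markers, Onecut2, Onecut3, Cldn4, Tff1 and Agr2 were at 0, and all 9 together summed to 10.2 CPM. The 8 alveolar type 1 markers summed to 733 CPM, against 22.6 and 28.5 CPM in the fibroblasts, with Lmo7 at 379 to 1122 TMM-scaled CPM per sample among the 9 unseeded samples. The part of such transcripts in the comparisons below was not tested beyond the values given there.

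Transcripts of the targets of the 2 drugs were few in mesothelial cells. Npy1r, the receptor that BIBO3304 blocks, stood at 10.9 ± 10.1 CPM, with a transcript in 18 cells (2.86%, against 0.0466% of alveolar macrophages), the 2nd highest of 22 types after smooth muscle cells and pericytes (40.9 CPM) and before alveolar fibroblasts (5.56 CPM). Slc6a2, the norepinephrine transporter through which 6-OHDA enters cells, stood at 3.40 CPM, against 486 CPM in large-vessel endothelial cells. Adrb1, a beta-adrenergic receptor, was found in 2.23% of cells, below the 13.7% of alveolar macrophages, and the alpha receptor Adra1a stood at 7.76 CPM against 429 CPM in alveolar fibroblasts. Npy itself, Npy2r, Npy4r, Npy5r, Adra1d, Adra2a, Adra2c and Adrb3 were at 0.

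Dpp4 was the exception in this list. It encodes a membrane peptidase that trims neuropeptide Y, which shifts the peptide away from NPY1R. It stood at 241 ± 72.9 CPM, with a transcript in 43.1% of mesothelial cells against 1.02% of alveolar macrophages, above every other type, of which alveolar type 2 cells came next with 180 CPM. Dpp4 was also the only one of the 16 listed genes with enough transcripts to be tested, and it passed the test in none of the 5 comparisons, with log2 fold changes from -0.52 to 0.12.

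No comparison of the share of mesothelial cells passed its test. Vehicle samples held 0.774%, 1.24% and 0.594% of their cells as mesothelial, and 6-OHDA samples 0.883%, 1.42% and 0.596%. BIBO3304 samples held 0.796%, 1.003% and 0.417%. These 3 groups overlap, and in each the second sample held the largest share.

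The seeded samples were closer together. With PDAC cells the share was 0.778% and 0.895% under vehicle, 0.657% and 0.486% under 6-OHDA, and 0.585% and 0.528% under BIBO3304. Both drug groups lay below both vehicle-PDAC samples, where 2 against 2 samples cannot give a two-sided exact permutation p under 0.333, the value of each comparison. The log2 fold change was -0.40 ± 0.45 (SE) for 6-OHDA and -0.40 ± 0.44 for BIBO3304 with PDAC cells, with adjusted p of 0.597 and 0.640 over 22 types by edgeR's quasi-likelihood test on cell numbers. They were -0.52 and -0.59 without vehicle-PDAC 2. Without PDAC cells the values were -0.03 ± 0.35 and -0.47 ± 0.35, with two-sided exact permutation p of 0.6 and 0.7, where 0.1 is the smallest possible. The mean share under 6-OHDA was above that under vehicle (0.968% against 0.869%), and its log2 fold change was 0.17 when scaled by cell totals only. PDAC cells against none under vehicle gave -0.15 ± 0.38 (exact permutation p = 1), or -0.14 without vehicle-PDAC 2.

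**Figure D2:**
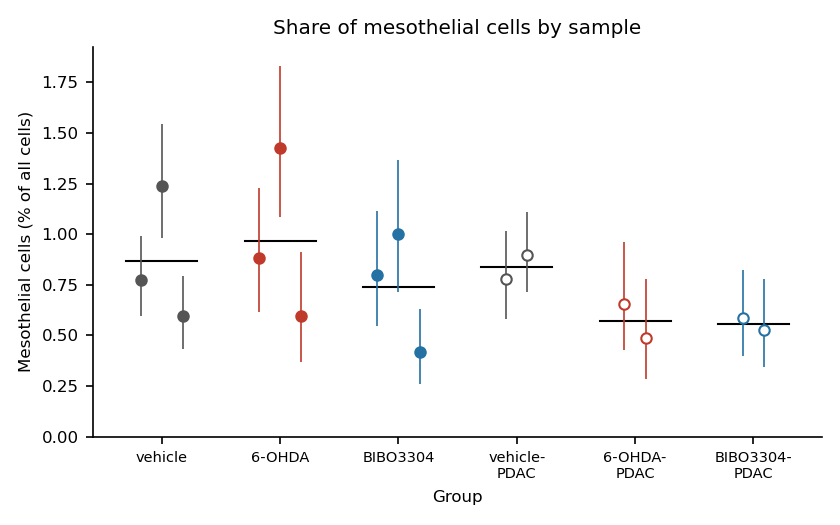
Mesothelial cells as a percent of all cells in each of the 15 samples, by group. Points are samples (open where PDAC cells were seeded), vertical lines are exact 95% Clopper-Pearson intervals, which cover counting error only, and horizontal bars are group means. The groups without PDAC cells overlap, and the 4 drug-treated seeded samples sit between 0.486% and 0.657%, below the 2 vehicle-PDAC samples at 0.778% and 0.895%.

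Gene levels were compared in counts summed per sample, with edgeR's quasi-likelihood test and Benjamini-Hochberg adjustment over the 3141 genes with enough transcripts, at a threshold of 0.05. Values by sample below are CPM scaled by the trimmed mean of M values (TMM). Under 6-OHDA without PDAC cells, 2 heat shock genes rose and the locus Mir6236 fell. These 3 genes make up 0.0955% of those tested. Heat shock proteins are chaperones that refold damaged proteins. Their genes are switched on together by Hsf1, which binds repeats of GAA in opposite orientation before their start sites. Tissue dissociation is also known to induce them.

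The stretches of 150 bases before the annotated start of the 3 inducible genes are printed because the genes were high in the same samples. Capitals mark matches to GAANNTTC or TTCNNGAA, each of which reads the same on both strands. All 3 lie on the minus strand, Hspa1b at chr17:34959239-34959388, Hspa1a at chr17:34972157-34972306 and Hsph1 at chr5:149636337-149636486, and are printed 5′ to 3′ from RefSeq, build GRCm38.p6.
Hspa1b: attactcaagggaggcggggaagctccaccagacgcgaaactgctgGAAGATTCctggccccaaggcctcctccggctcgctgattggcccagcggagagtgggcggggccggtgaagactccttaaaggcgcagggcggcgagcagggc
Hspa1a: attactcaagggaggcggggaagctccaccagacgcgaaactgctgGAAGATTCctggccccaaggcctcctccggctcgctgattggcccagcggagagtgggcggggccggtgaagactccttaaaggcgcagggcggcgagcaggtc
Hsph1: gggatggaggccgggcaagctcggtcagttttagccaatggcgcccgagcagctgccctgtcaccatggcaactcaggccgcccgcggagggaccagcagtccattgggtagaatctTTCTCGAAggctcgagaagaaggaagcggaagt
Hspa1a and Hspa1b are identical at 149 of these 150 bases, and 59.6% of the 60-base stretches of the Hspa1b transcript are found in Hspa1a, so that reads of one may be counted for the other and their values are uncertain as single genes. Over 250 bases before the start, a match was found for 7 of the 9 listed heat shock genes in the table of promoters and for 12.8% of its 32851 promoters. A match is a description of the letters, not a binding site.

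Hspa1b, the inducible form of Hsp70, stood at 96.5, 34.8 and 122 CPM in the vehicle samples and at 398, 152 and 867 CPM under 6-OHDA. All 3 6-OHDA samples lay above all vehicle samples, as 4.90% of the tested genes did. It rose by 2.32 ± 0.50 (log2 fold change with its SE, adjusted p = 0.0454). The counts behind it were 19, 4 and 13 transcripts under vehicle and 45, 23 and 49 under 6-OHDA, which came from 14, 3 and 6 cells and from 16, 13 and 15 cells.

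Hsph1, a nucleotide exchange factor that works with Hsp70, stood at 71.1, 26.1 and 103 CPM under vehicle and at 212, 165 and 743 CPM under 6-OHDA, without overlap. It rose by a log2 value of 2.31 ± 0.47 (adjusted p = 0.0392). In 6-OHDA 3, the highest sample, 18 of its 42 transcripts came from 1 cell, and in vehicle 1 it was 10 of 14.

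Hspa1a, the near copy of Hspa1b, showed 35.6, 17.4 and 65.4 CPM under vehicle and 212, 99.0 and 230 CPM under 6-OHDA (log2 fold change 2.12 ± 0.54, adjusted p = 0.214). Dnaja1, a co-chaperone of Hsp70, showed 107, 122 and 140 CPM against 327, 284 and 301 CPM, the tightest samples of this group (1.32 ± 0.33, adjusted p = 0.214). Neither passed the test, although the samples of the groups do not overlap for either. Of the 12 heat shock genes listed, 9 were tested. Both called genes were among them (0.0637% of all genes rose), all 9 had a log2 fold change above 0 (48.7% of all genes), and their median was 1.03, against -0.01 over all genes. The list and its 2 called genes were known from earlier results of these data.

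**Figure D3:**
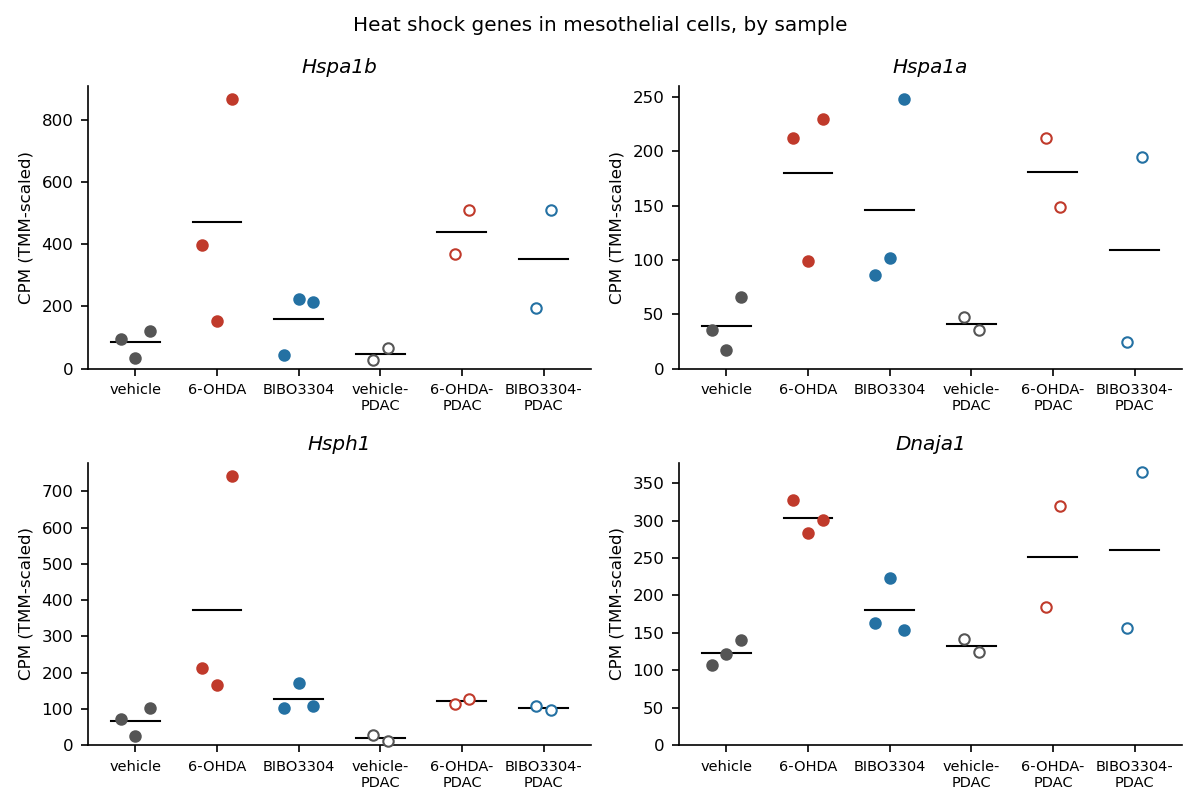
TMM-scaled CPM of Hspa1b, Hspa1a, Hsph1 and Dnaja1 in mesothelial cells of each sample, by group. Points are samples (open where PDAC cells were seeded) and bars are group means, with 6-OHDA-PDAC 2 drawn although it was left out of the fits. For each gene the 3 6-OHDA samples lie above the 3 vehicle samples, and 6-OHDA 3 is the highest for Hspa1b with 867 CPM and for Hsph1 with 743 CPM.

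Depth and marker sums overlapped between the groups. Cells had a median of 1642.5 to 2199 transcripts under vehicle and 1859 to 2880 under 6-OHDA. The median percent of mitochondrial transcripts was 2.02 to 2.30 in vehicle and 1.91 to 2.61 in 6-OHDA samples. Immune markers summed to 310 to 661 CPM under vehicle and 203 to 566 CPM under 6-OHDA, and mesothelial markers to 6326 to 6772 and 6744 to 7246 CPM. The 3 calls rest on single samples: without vehicle 1, vehicle 2 or 6-OHDA 3 no gene passed, and the adjusted p of Hspa1b ran from 0.00309 to 0.541 over the fits with 1 sample left out. Without 6-OHDA 3 the log2 fold changes were 1.47 for Hsph1, 1.64 for Hspa1b and -1.60 for Mir6236. Without vehicle 1 they were 2.39, 2.47 and -1.21. With DESeq2 Mir6236 alone passed, as it did with a robust estimate of the spread. Without the cells that held 2 or more immune marker transcripts, Hspa1b (adjusted p = 0.0122) and Hsph1 (0.0319) passed and Mir6236 did not (0.121).

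In fibroblasts of the same samples the fold changes of Hspa1b and Hsph1 were near those of mesothelial cells. For Hspa1b the groups overlapped there. Without TMM scaling, vehicle 3 stood at 142 CPM in adventitial and 223 CPM in alveolar fibroblasts, above 6-OHDA 2 with 67.0 and 37.7 CPM. Hspa1b had a log2 fold change of 1.91 in adventitial and 2.06 in alveolar fibroblasts, which did not pass there, and the mesothelial value exceeded them by 0.42 ± 0.42 and 0.21 ± 0.41 (adjusted p = 1 for each). For Hsph1 the differences were 0.18 ± 0.46 and 0.53 ± 0.43. None of these differences passed. For Hspa1a the differences were larger, 1.34 ± 0.57 and 0.94 ± 0.52, and did not pass (adjusted p = 1).

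Mir6236 was the gene that fell. This locus is annotated as the precursor of a microRNA, printed here from RefSeq (GRCm38.p6, chr9:110281353-110281371, plus strand) with the seed, bases 2 to 8, in capitals.
mmu-miR-6236: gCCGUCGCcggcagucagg
Counts of a gene cannot show the mature microRNA. Mir6236 stood at 25778, 12417 and 11360 CPM under vehicle and at 6063, 4824 and 4530 CPM under 6-OHDA. All 6-OHDA samples lay below all vehicle samples, as for 5.76% of the tested genes, and it fell by 1.68 on the log2 scale (SE 0.35, adjusted p = 0.0392). Rn18s-rs5, a ribosomal RNA locus, took 17.7 to 23.1% of transcripts under vehicle and 16.7 to 22.7% under 6-OHDA. Mir6236 also fell in adventitial fibroblasts, by a log2 value of 1.51 (adjusted p = 0.00415), and the difference between the types was -0.13 ± 0.22.

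No gene that marks the type was called under 6-OHDA. Wt1 stood at 925, 896 and 935 CPM under vehicle and at 1105, 1340 and 1309 CPM under 6-OHDA. The groups do not overlap, as for 4.9% of the tested genes in the higher direction, and the change of 0.44 ± 0.26 did not pass (adjusted p = 0.945). Msln changed by 0.14 ± 0.30 and Upk3b by 0.01 ± 0.28. Of the 20 identity genes 18 were tested, none was called, 12 lay above 0 and their median was 0.02. No member was called in the other 14 lists either, among them transition to mesenchyme (15 tested, median -0.20), basement membrane and hyaluronan (15, -0.34), junctions (10, -0.08) and complement (9, 0.21).

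With BIBO3304 and no PDAC cells, no gene passed (0% of those tested). At an unadjusted p under 0.05 there were 266 genes (8.47%), of which 99 were higher and 167 lower, and DESeq2 also called 0, with 149 at that level. Jund, a subunit of the AP-1 transcription factor, had the smallest p. It stood at 1458, 2262 and 1720 CPM under vehicle and at 879, 319 and 746 CPM under BIBO3304, without overlap (log2 fold change -1.50 ± 0.33, adjusted p = 0.165). S100a6, a calcium-binding protein gene, stood at 351, 661 and 486 CPM against 198, 121 and 190 CPM (-1.57 ± 0.37, adjusted p = 0.170).

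Ier2, an immediate early nuclear protein gene, stood at 229, 305 and 206 CPM against 121, 44.7 and 82.9 CPM (-1.61 ± 0.40, adjusted p = 0.223). Birc3, an inhibitor of apoptosis, stood at 96.5, 157 and 168 CPM against 34.5, 44.7 and 23.7 CPM (-1.90 ± 0.48, adjusted p = 0.223). Pkia, an inhibitor of protein kinase A, went the other way, from 147, 78.3 and 46.7 CPM to 276, 179 and 521 CPM (1.67 ± 0.39, adjusted p = 0.170). None of these 5 genes overlapped between the groups, as was true of 6.37% of tested genes in the higher and 8.12% in the lower direction. Without the cells that held 2 or more immune marker transcripts, 3 genes passed: Ier2 (-2.87, adjusted p = 0.00342), Jund (-1.64, 0.0269) and Pkia (1.98, 0.0242). Without the 5% of cells with the most transcripts, Ier2 (-2.29, 0.0227) and Jund (-1.66, 0.0240) passed.

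Immediate early genes are transcribed within minutes of a stimulus and are also known to respond to dissociation. Of the 20 listed, 16 were tested under BIBO3304. None was called, 0 of 16 lay above 0 (49.9% of all genes did), 8 were lower at an unadjusted p under 0.05 (5.32% of all), and their median was -0.67 against -0.00 over all genes. Besides Jund and Ier2 these include Junb, with 742, 1175 and 496 CPM under vehicle and 396, 306 and 249 CPM under BIBO3304, and Egr1, with 1102, 1610 and 879 CPM against 707, 294 and 663 CPM. Depth differed between these groups: BIBO3304 cells had more transcripts (medians 2645 to 5272 against 1642.5 to 2199), and its part in these values was not tested. Under 6-OHDA the same 16 genes had a median of -0.05, with 8 above 0, and both comparisons use the same vehicle samples.

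Jund and S100a6 were also lower in fibroblasts. S100a6 fell in adventitial fibroblasts by 1.30 on the log2 scale (adjusted p = 0.0175) and in alveolar fibroblasts by 1.20 (0.0453). Jund fell in alveolar fibroblasts by 1.19 (adjusted p = 0.0332) and stood at -1.30 in adventitial fibroblasts, which did not pass (0.0594). The mesothelial changes differed from these by -0.29 ± 0.36 and -0.27 ± 0.36 for S100a6, and by -0.36 ± 0.27 and -0.27 ± 0.27 for Jund. Of the other lists under BIBO3304, oxidative stress had 0 of 7 above 0 (median -0.50), transition to mesenchyme 5 of 15 (median -0.53) and heat shock 6 of 9 (median 0.60, with Hspa1a at 1.81, Hsph1 at 0.96 and Hspa1b at 0.90), with no member called. Of the identity genes 9 of 18 lay above 0, with a median of 0.02.

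**Figure D4:**
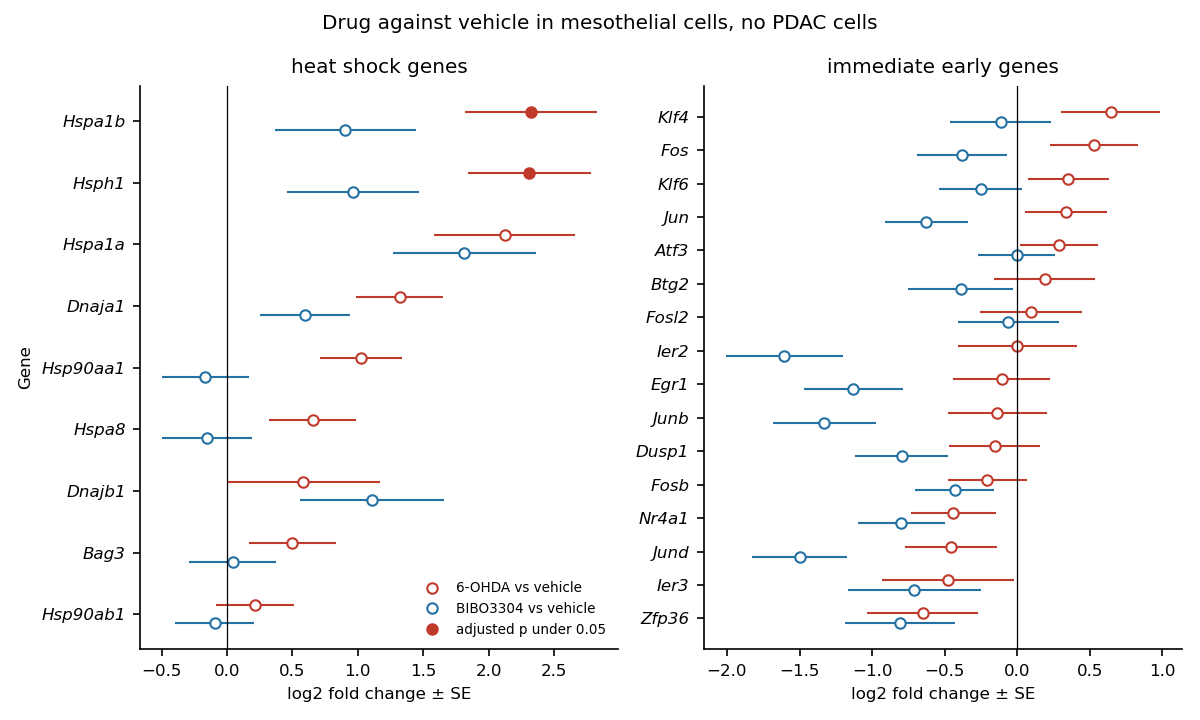
Log2 fold changes with their standard errors for the tested heat shock genes (left) and immediate early genes (right), for 6-OHDA and BIBO3304 against vehicle without PDAC cells. Filled points passed the adjusted threshold. Only Hspa1b and Hsph1 under 6-OHDA are filled, all 9 heat shock genes lie right of 0 under 6-OHDA, and all 16 immediate early genes lie at or left of 0 under BIBO3304.

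One gene separated mesothelial cells from both fibroblast types under BIBO3304. Thbs1, which encodes the matrix protein thrombospondin 1, stood at 122, 146 and 54.0 CPM under vehicle and at 27.1, 19.6 and 17.9 CPM under BIBO3304, without TMM scaling and from 26, 21 and 6 against 3, 3 and 2 transcripts. It was chosen after its values were seen. In the vehicle samples Thbs1 was at 215, 130 and 261 CPM in adventitial and 1815, 1146 and 1801 CPM in alveolar fibroblasts, also unscaled. The part of stray fibroblast transcripts in the mesothelial values was not tested. Its log2 fold change was -2.42 in mesothelial cells, where it did not pass alone, 0.61 ± 0.30 in adventitial and 0.07 ± 0.19 in alveolar fibroblasts. The difference was -3.07 ± 0.55 from adventitial (adjusted p = 9.02e-05) and -2.54 ± 0.53 from alveolar fibroblasts (adjusted p = 0.0179), where 4 of 8572 (0.0467%) and 1 of 11974 genes (0.00835%) were called. With the robust estimate of the spread the adjusted p were 0.000111 and 0.0464. With 1 sample left out, the difference of Thbs1 stayed between -3.52 and -2.09. The call against alveolar fibroblasts was lost without vehicle 2 (adjusted p = 0.314), BIBO3304 2 (0.156) or BIBO3304 3 (0.216), and that against adventitial fibroblasts without vehicle 2 (0.0579).

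The other calls against adventitial fibroblasts were Emp1 (-2.50, adjusted p = 0.0365), Mir6236 (-1.01 ± 0.22, adjusted p = 0.0196) and Wt1 (3.57). The adventitial Wt1 transcripts ran from 0 to 113 per sample. With the robust estimate the calls of Emp1 (adjusted p = 0.387) and Wt1 (0.863) were lost, and that of Mir6236 was kept (0.0344). Under 6-OHDA the calls against both types were Nfatc2, a transcription factor of calcium signalling, by 2.43 and 2.97, and Gm16685, a predicted gene (2 of 8572, 0.0233%, and 2 of 11974, 0.0167%). These too were chosen after their values were seen. The robust estimate left 1 and 0 of the calls under 6-OHDA. The call left was Gm16685 against adventitial fibroblasts (adjusted p = 0.0369), while Nfatc2 passed against neither type (0.995 and 0.998).

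With PDAC cells, 4 genes rose in the single 6-OHDA-PDAC sample tested against vehicle-PDAC (0.127% of those tested). Fn1, which encodes the matrix protein fibronectin, stood at 9.43 and 71.1 CPM in the vehicle-PDAC samples and at 610 CPM in 6-OHDA-PDAC 1 (log2 fold change 3.97 ± 0.60, adjusted p = 0.00029). The sample left out, 6-OHDA-PDAC 2, stood at 106 CPM, from 5 transcripts in 3 cells, above both vehicle-PDAC samples and far under its partner. Without TMM scaling it stood at 102 CPM, against 75.1, 69.5 and 54.0 CPM in the unseeded vehicle samples. Of all tested genes, 36.5% lay higher and 36.9% lower in 6-OHDA-PDAC 1 than in both vehicle-PDAC samples. Pde4d, a phosphodiesterase that breaks down cAMP, stood at 156 and 302 CPM against 1276 CPM (2.49 ± 0.42, adjusted p = 0.0015), and at 277 CPM in the sample left out.

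Pde7b, also a cAMP phosphodiesterase, stood at 18.9 and 17.8 CPM against 326 CPM (4.07 ± 0.86, adjusted p = 0.0306), and at 0 in 6-OHDA-PDAC 2. Celf4, an RNA-binding protein gene best known from neurons, stood at 14.1 and 0 CPM against 198 CPM (4.50 ± 0.96, adjusted p = 0.0306), and at 42.6 CPM in 6-OHDA-PDAC 2. For Pde4d, Pde7b and Celf4 only 1 of the 2 6-OHDA-PDAC samples, the one in the fit, was far above the vehicle-PDAC samples. Celf4 counts were 3 and 0 transcripts in the vehicle-PDAC samples and 14 in 6-OHDA-PDAC 1. The unseeded vehicle samples held 14, 9 and 7 (mean 71.6 CPM), and BIBO3304-PDAC 1 held 8. Fn1 is the only member of the transition list that was called (1 of 15 tested, 8 of them above 0 against 48.1% of all genes, median 0.33). The log2 fold changes of the list ran from -0.81 to 3.97.

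Fn1 rested largely on 1 cell. Of its 43 transcripts in 6-OHDA-PDAC 1, 30 came from a single cell, and 7 of the 26 cells had any. That cell had 3542 transcripts, 9 of the 10 mesothelial markers, 4 fibroblast marker transcripts and no immune marker transcript. It also held 15 of the 90 Pde4d and 10 of the 23 Pde7b transcripts, and none of the 14 of Celf4. Without it, 2 genes passed, Pde4d (adjusted p = 0.0144) and Celf4 (0.0468), while Fn1 stood at 2.32 (adjusted p = 0.584).

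**Figure D5:**
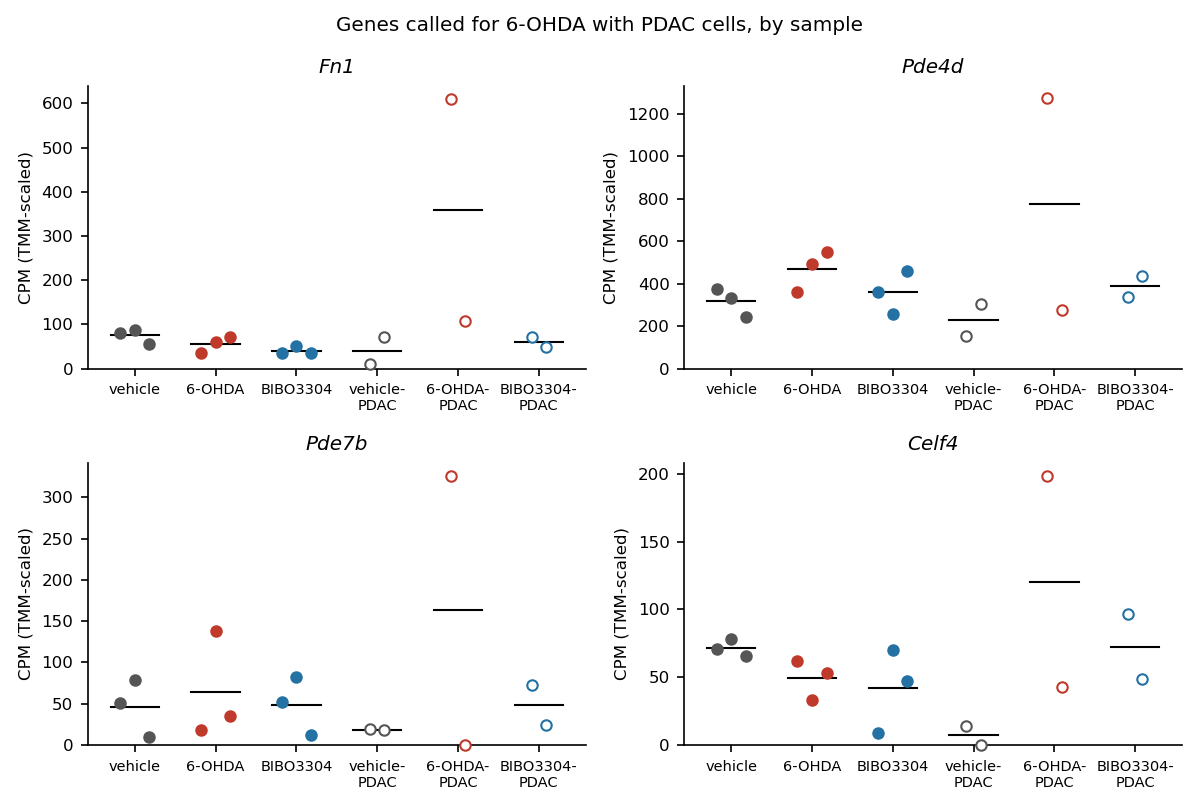
TMM-scaled CPM of Fn1, Pde4d, Pde7b and Celf4 in mesothelial cells of each sample, by group. Points are samples (open where PDAC cells were seeded) and bars are group means, with 6-OHDA-PDAC 2 drawn although it was left out of the fits. 6-OHDA-PDAC 1 stands alone at the top of each panel, at 610, 1276, 326 and 198 CPM.

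Leaving out either vehicle-PDAC sample leaves 1 sample against 1, so that neither group is replicated and only fold changes are given. Without vehicle-PDAC 2, which held no cancer cell, the log2 fold changes were 5.84 for Fn1, 3.01 for Pde4d, 4.02 for Pde7b and 3.69 for Celf4. Without vehicle-PDAC 1 they were 3.08, 2.07, 4.11 and 7.49. For Fn1, vehicle-PDAC 1 held 2 transcripts and 6-OHDA-PDAC 1 held 43. With 6-OHDA-PDAC 2 let in by a minimum of 10 cells, Fn1 alone passed (3.28, adjusted p = 0.0263), with Pde4d at 1.83 (0.108) and Pde7b at 3.20 (0.363). With the 2 groups alone in the fit no gene passed, since 3 samples give 1 degree of freedom. The immune markers summed to 231 and 1079 CPM in the vehicle-PDAC samples and to 383 and 405 CPM in the 6-OHDA-PDAC samples. Without the cells that held 2 or more immune marker transcripts, Celf4 stood at 3.20 and Pde7b at 4.23, and neither passed. The part of such transcripts was not tested further.

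The effects of 6-OHDA with and without PDAC cells were compared directly. Fn1 was the 1 gene called of 3141 (0.0318%), with a difference of 4.47 ± 0.80 (adjusted p = 0.00746), against 2.82 (adjusted p = 0.916) without the cell described above. It was 6.35 without vehicle-PDAC 2, where the 2 seeded groups had 1 sample each. The call of Fn1 was lost with 6-OHDA-PDAC 2 let in (3.77, adjusted p = 0.325), without vehicle 1 (4.40, 0.0567) or vehicle-PDAC 1 (3.58, 0.0675), without the cells with immune marker transcripts (5.03, 0.236) and with DESeq2 (0.0787). Against fibroblasts of the same samples, the difference of the 6-OHDA effect with PDAC cells was 4.08 ± 0.57 (adventitial) and 3.07 ± 0.56 (alveolar) for Fn1. It was 2.38 and 2.50 for Pde4d, 3.84 and 3.38 for Pde7b, and 5.85 against alveolar fibroblasts for Celf4. These differences from fibroblasts were not refitted without the cell described above. In those comparisons 4 of 8572 (0.0467%) and 5 of 11974 genes (0.0418%) were called, and 5 and 2 without vehicle-PDAC 2. Without it the difference was 6.43 and 5.45 for Fn1, 2.71 and 2.96 for Pde4d, and 3.74 and 3.14 for Pde7b, of which the last did not pass (adjusted p = 0.314), nor did Celf4 (4.28).

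In the seeded samples no heat shock gene passed the test as fitted, although Hspa1b did under some alternatives. Hspa1b stood at 28.3 and 65.2 CPM in vehicle-PDAC samples, at 369 CPM in 6-OHDA-PDAC 1 and 511 CPM in 6-OHDA-PDAC 2, and at 193 and 511 CPM in BIBO3304-PDAC samples. The 4 drug-treated samples lay above both vehicle-PDAC samples. Of the tested genes, 36.5% lay above both in 6-OHDA-PDAC 1, and 15.1% did so in the BIBO3304-PDAC samples. The log2 fold changes were 3.0 ± 0.78 for 6-OHDA (adjusted p = 0.240) and 2.81 ± 0.69 for BIBO3304 (adjusted p = 0.203), or 3.64 and 3.46 without vehicle-PDAC 2. Without the filter on low counts Hspa1b passed under 6-OHDA (adjusted p = 0.0187) and BIBO3304 (0.0301), and under 6-OHDA also with a replicate block (0.0382) and without the cells with immune marker transcripts (0.0363). For Hsph1 the log2 fold changes were 2.39 and 2.27, or 1.95 and 1.85 without vehicle-PDAC 2. In each comparison 8 of the 9 tested heat shock genes lay above 0, against 48.1% and 47.7% of all genes, with medians of 0.67 and 1.04, and both use the same vehicle-PDAC samples. The 6-OHDA effect on Hspa1b with PDAC cells exceeded that without by 0.67 ± 0.93, which did not pass (adjusted p = 0.994).

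BIBO3304 against vehicle with PDAC cells gave no call (0%), with 164 genes (5.22%) at an unadjusted p under 0.05 and 0 calls with DESeq2, which had 85 at that level. The genes with the smallest p were Hspa1b, above, and 4 others. Ppfibp2, a liprin of cell contacts, stood at 505 and 385 CPM under vehicle-PDAC and at 157 and 72.9 CPM under BIBO3304-PDAC (-1.82 ± 0.42). Timp3, a matrix-bound inhibitor of metalloproteinases, stood at 170 and 231 CPM against 24.1 and 24.3 CPM (-2.99 ± 0.73). Rhoj, a small GTPase, stood at 66.0 and 59.3 CPM against 217 and 340 CPM (2.07 ± 0.51). The adjusted p of these 3 genes was 0.203. Without vehicle-PDAC 2 the values were -1.99, -2.75 and 2.0.

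None of these 3 overlapped between the groups, as was true of 15.1% of genes in the higher and 19% in the lower direction. Lsmem1, a membrane protein gene, came next at -1.84 (adjusted p = 0.221). The change of Timp3 differed from that in alveolar fibroblasts by -3.33 (adjusted p = 0.0171) and that of Rhoj by 2.54 (adjusted p = 0.0150), 2 of 11974 genes called (0.0167%). Without vehicle-PDAC 2 these were -3.34 and 2.57 and did not pass (adjusted p = 0.113 for each). Against adventitial fibroblasts 1 of 8572 was called (0.0117%), Wt1. No gene passed when vehicle-PDAC 2 or any other sample was left out. For the difference of the BIBO3304 effect with and without PDAC cells 0 genes passed (0%), with 216 (6.88%) at an unadjusted p under 0.05 and 102 by DESeq2, which called 0. Without vehicle-PDAC 2, 3 genes passed there, Ccnb1ip1 (3.83, adjusted p = 0.0236), Rn7s2 (5.34, 0.0410) and Rps12 (3.01, 0.0417).

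PDAC cells against none under vehicle gave no call either (0%), with 118 genes (3.76%) at an unadjusted p under 0.05 and 51 by DESeq2, which called 0. Rin2, a guanine nucleotide exchange factor for Rab5, stood at 127, 131 and 168 CPM without and at 420 and 255 CPM with PDAC cells (1.27 ± 0.33, adjusted p = 0.920). Lrp2, the endocytic receptor megalin, stood at 239, 270 and 187 CPM against 486 and 510 CPM (1.09 ± 0.30, adjusted p = 0.920). Neither gene overlapped between the groups, as was true of 9.07% of genes in the higher and 8.85% in the lower direction. Celf4 had a log2 fold change of -3.05, Nkain2 one of -1.67 and Atl1 one of 2.78, without passing.

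Of the identity genes 16 of 18 lay above 0 in this comparison, against 50% of all genes, with a median of 0.19, and none was called. Wt1, Upk3b and Msln stood at 0.14 ± 0.28, 0.13 ± 0.30 and -0.14 ± 0.32. Clock genes drive the daily rhythm of transcription. Of 12 tested, 1 lay above 0, the median was -0.69 and 4 (Tef, Hlf, Nr1d1 and Nr1d2) were lower at an unadjusted p under 0.05, as were 2.23% of all genes, with no call. Hlf, an output gene of the clock, stood at 203, 157 and 150 CPM without and at 84.9 and 53.3 CPM with PDAC cells. Without vehicle-PDAC 2, which held no cancer cell, 1 gene passed in this comparison, Ccnb1ip1, with a log2 fold change of -3.30 (edgeR, adjusted p = 0.00893). Rin2 was then at 1.59, Lrp2 at 1.07 and Celf4 at -2.25. Of the identity genes 14 of 18 then lay above 0 (median 0.25), and of the clock genes 2 of 12 (median -0.78). Against fibroblasts, 1 of 8572 (0.0117%, Wt1) and 0 of 11974 genes (0%) differed in this effect, and 2 and 2 without that sample.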

How the data were processed

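The deposited matrices hold raw transcript counts per cell and gene, from 16 Parse Evercode sublibraries that pool 15 samples and 38003 genes. Sample, condition, PDAC status (read from a column with the value IV) and cell type came from the authors' deposited cell table, which also gives each cell's percent of mitochondrial transcripts as the authors computed it. Seurat 5.3.0 and the mm39 build are named per the submitters' processing notes. No source used here names the aligner, the counter, the filters on cells or the treatment of doublets, and no cell was removed.

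Counts were summed per sample over mesothelial cells (minimum 20 cells) and fitted with edgeR 4.0.16 (filterByExpr, TMM, quasi-likelihood test, all 6 groups in 1 fit) in R 4.3.3, with Benjamini-Hochberg adjustment over 3141 genes. The difference from fibroblasts was fitted on both types with the sample as a block. Shares were tested with edgeR on cell numbers and by exact permutation. DESeq2 1.42.0 was an alternative. The fits were tested on simulated data. Intervals and floors cover counting error only.

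Named genes are those past the threshold with at least 20 CPM (at most 12 in each direction), or the 5 smallest p where fewer than 8 passed, listed genes that passed, the 3 markers, and Hspa1b and Hsph1. Other members of the lists, Thbs1, Nfatc2, Emp1, Gm16685, Rn7s2, Ccnb1ip1, Rps12, Tef and Lmo7 were named after their values were seen. The members and lists were chosen with earlier results of these data known. 1 listed gene is not reported here.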

Additional observations from a re-analysis of the deposited data

Results flagged for a closer look

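Among the genes chosen by the rule for named genes, 7 had an effect of 1 treatment that differed with and without PDAC cells or between cell types. No explanation was weighed. The 6-OHDA effect on Fn1 with PDAC cells exceeded that without by 4.47 on the log2 scale. The 6-OHDA effect with PDAC cells was larger in mesothelial cells than in adventitial and alveolar fibroblasts by 4.08 and 3.07 for Fn1, by 3.84 and 3.38 for Pde7b, and by 2.38 and 2.50 for Pde4d. For Celf4 it was larger than in alveolar fibroblasts by 5.85. All of these rest on 6-OHDA-PDAC 1 alone. In that sample 1 cell held 30 of the 43 Fn1, 10 of the 23 Pde7b and 15 of the 90 Pde4d transcripts, and none of Celf4. Without that cell the difference of the 6-OHDA effects on Fn1 was 2.82. The differences from fibroblasts were not refitted without it.

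The BIBO3304 effect with PDAC cells differed from that in alveolar fibroblasts by -3.33 for Timp3 and by 2.54 for Rhoj. Wt1 differed from adventitial fibroblasts by 3.57 for BIBO3304 without PDAC cells, by -6.59 for 6-OHDA and -5.01 for BIBO3304 with them, and by 6.72 for PDAC cells against none. In mesothelial cells alone the change of Wt1 was 0.08, -0.43, -0.07 and 0.14 in these comparisons. None of the 4 Wt1 differences passed with the robust estimate of the spread, where the adjusted p were 0.863, 0.962, 0.991 and 1.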

How the results depend on the processing

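Counts of called genes moved with several settings, and the cause was not tested except where fewer samples or genes entered. Without the filter on low counts they were 6 for 6-OHDA, 2 for BIBO3304 (both without PDAC cells), 2 for BIBO3304 with PDAC cells and 2 for the difference of the 6-OHDA effect with and without them. A minimum of 10 cells gave 0, 1 and 0 for 6-OHDA without, with and between, and one of 50 gave 0 for 6-OHDA without PDAC cells. DESeq2 gave 1, 2 and 0 for these 3, and the 2 groups alone gave 0 without and 0 with PDAC cells. Without the 190 cells with 2 or more immune marker transcripts BIBO3304 had 3 calls and the differences of effect 0 (6-OHDA) and 1 (BIBO3304). Without the deepest 5% of cells BIBO3304 had 2. The robust estimate and leaving out the Fn1 cell were chosen after seeing the data. The first left 1 call for 6-OHDA, and the second 2 and 0 for 6-OHDA with PDAC cells and between. For the difference from adventitial fibroblasts the robust estimate gave 1 (6-OHDA), 2 (BIBO3304), 0 (BIBO3304 with PDAC cells) and 0 (PDAC cells), and from alveolar fibroblasts 0 (6-OHDA). RLE scaling gave 8 (BIBO3304), 8 (6-OHDA with PDAC cells) and 1 (PDAC cells) there. The share under 6-OHDA turned to 0.17 with library size only, and that with PDAC cells to 0.070 among cells other than alveolar macrophages.

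Leaving out 1 sample at a time gave 0 to 3 calls for 6-OHDA, 2 to 3 with PDAC cells, 0 to 1 for PDAC cells, 0 to 2 and 0 to 3 for the differences of the 6-OHDA and BIBO3304 effects, and 0 for BIBO3304 in each. Differences from adventitial fibroblasts ran 1 to 6, 2 to 5, 3 to 5, 1 to 1 and 1 to 2, and from alveolar fibroblasts 0 to 3, 0 to 7, 2 to 2, 0 to 1 and 0 to 2. Shares ran -0.41 to 0.20, -0.81 to -0.24, -0.54 to -0.29, -0.93 to -0.40 and -0.14 to 0.079.

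Same-numbered samples leaned together slightly more than others. Their median r was 0.0194 over 23 pairs, against -0.00993 over 44 pairs with different numbers. Above 0.1 lay 6 of the 23 and 3 of the 44 pairs. Same-numbered samples were not treated as pairs in the main fits. A replicate block gave 3 calls for 6-OHDA, 0 for BIBO3304, and 6 and 0 with PDAC cells.

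Small changes of markers and heat shock genes crossed 0 in some settings, none of them past the threshold. Upk3b under 6-OHDA turned to -0.079 without the filter and to -0.093 without cells with immune transcripts. Without those cells Msln turned to 0.069 (BIBO3304 with PDAC cells) and 0.33 (difference of the BIBO3304 effects), Upk3b to 0.0032 and Hsph1 to -0.31 (difference of the 6-OHDA effects). Hsph1 turned to -0.059 in the last without the filter, and Msln to 0.041 for PDAC cells with the replicate block. With 1 sample left out, Msln ran -0.065 to 0.28 and Upk3b -0.11 to 0.11 under 6-OHDA, and Msln -0.27 to 0.21 and Upk3b -0.17 to 0.16 under BIBO3304. With PDAC cells, Msln ran -0.35 to 0.12 and Wt1 -0.20 to 0.050 under BIBO3304. Msln ran -0.30 to 0.024 for PDAC cells and -0.31 to 0.18 for the difference of the BIBO3304 effects, and Hsph1 -0.37 to 0.92 for that of the 6-OHDA effects.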

Other observations

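Cells with a transcript of Mki67 or Top2a, genes of dividing cells, numbered 4, 2 and 3 in the vehicle samples, 0, 7 and 0 under 6-OHDA and 1, 0 and 1 under BIBO3304. With PDAC cells they numbered 5 and 6 under vehicle, 1 and 0 under 6-OHDA and 2 and 2 under BIBO3304. In the 6-OHDA samples all 7 such cells came from the second sample.

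Cxcl10, a chemokine induced by interferon, stood at 50.8, 235 and 65.4 CPM under vehicle and at 0, 33.0 and 17.7 CPM under 6-OHDA, a log2 fold change of -2.56 that did not pass (edgeR, adjusted p = 0.658). The groups do not overlap, as for 5.76% of the tested genes in the lower direction.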
